A study of Homo sapiens with 54 samples.

Results

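The genes described here encode the nuclear-encoded subunits of the 5 complexes of oxidative phosphorylation. They were chosen by symbol alone, as the rows of the expression table named NDUFA, NDUFB, NDUFC, NDUFS or NDUFV with a number (complex I), SDHA to SDHD (complex II), and fixed sets of UQCR (complex III), COX (complex IV) and ATP5 (complex V) symbols. This gave 74 of the 25435 genes in the table, 37 of complex I, 4 of complex II, 8 of complex III, 10 of complex IV and 15 of complex V. All 74 passed the filter on low values. NDUFA4 is counted under complex I because of its symbol, although the protein is now placed in complex IV. The mitochondrially encoded subunits were not analysed here, because 0 of their symbols stood in the table.

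RNA came from 6 established high-grade serous ovarian cancer cell lines that form 3 pairs, each pair derived from a single patient, with the platinum-sensitive line named first: PEA1 and PEA2, PEO1 and PEO4, PEO14 and PEO23. Every line was grown in RPMI medium with glutamine and serum, and was measured without drug (labelled untreated; vehicle for 24 h in the series text) and after 8 h and 24 h in carboplatin (80 µM in the treatment protocol; the series text writes the unit as mM), a platinum compound that binds and crosslinks DNA bases. No line carried an engineered allele per the labels, and each condition of a line had 3 replicates, which the series text assigns to different days, so that 54 libraries fell into 18 groups. Each pair is 1 sensitive and 1 resistant line, so a difference within a pair cannot be told apart from any other difference between those cultures.

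Values were gene-level TPM, which divide each gene's reads by its length and then by the library's sum. TPM keeps no read depth, so the depth behind each value is unknown. In 12 libraries fewer than 12000 genes were listed above 0 TPM, and they were set aside. This limit came from an earlier analysis of the same data, so it was chosen with results known. The 42 kept libraries listed 12877 to 17133 genes and comprised 13 untreated, 15 at 8 h and 14 at 24 h. A single kept library remained for PEO14 at 24 h, PEO4 at 24 h and untreated PEA1 (in tests it is taken to vary as other groups do), and untreated PEO23 had 0, so PEO23 has no comparison with its untreated state. PEA2, PEO1 and PEO4 at 8 h had 2. Levels are TPM rescaled by the median ratio over 8287 genes, with factors of 0.261 to 1.73. The factors were 1.15 to 1.73 in untreated and 0.261 to 1.39 in treated libraries. The noncoding RNAs RMRP and RPPH1 took 7.14 to 45.6% of TPM. They took 41.2% in PEO1 and 38.2% in PEO4 at 8 h, replicate 2, where the factors were lowest (0.261 and 0.264). Epithelial markers were present (6 of 6 with a median of at least 1 rescaled TPM), as were 6 of 7 Müllerian and serous ovarian markers. Medians of at least 1 were also found for 1 of 6 fibroblast, 1 of 5 leukocyte and 1 of 4 endothelial markers, with the T cell marker CD3E at 0 in every kept library.

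Complexes I to IV make up the respiratory chain of the inner mitochondrial membrane. Complex I takes electrons from NADH, complex II from succinate as part of the citric acid cycle, complex III passes them from ubiquinol to cytochrome c, and complex IV hands them to oxygen. Complexes I, III and IV pump protons, and complex V, the ATP synthase, uses the return of the protons to make ATP. Many nuclear genes for these subunits have CpG-rich promoters in which sites for NRF1, ETS-family factors such as GABP, and YY1 are often found.

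RefSeq promoter windows (build GRCh38.p14, 250 bases before to 50 after the start site) could be matched by current symbol to 61 of the 74 genes. The NRF1 core GCATGCGC was searched on both strands and was present in 13 of these 61 windows (21.3%), against 3.27% of all 27305 windows in the table. The ETS core CCGGAAG was present in 19 (31.1%, against 10.7% of all windows) and the YY1 core AAGATGGC in 11 (18%, against 3.03%). At least 1 of the 3 was present in 33 (54.1%, against 15.6%). NRF1 matches on both strands can overlap and then cover 1 site. The ETS and YY1 letters were also searched on both strands. These matches describe letters only, and binding was not measured.

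The windows of the genes on which the results below turn are shown in lower case with matched motif letters in capitals. UQCRC1 (chr3:48609597-48609896, minus strand) and NDUFB4 (chr3:120596086-120596385, plus strand) were called higher in all 5 lines compared after 24 h in carboplatin. ATP5C1 (current symbol ATP5F1C, chr10:7787927-7788226, plus strand), SDHA (chr5:218070-218369, plus strand) and UQCRH (chr1:46303448-46303747, plus strand) differed between lines.
UQCRC1: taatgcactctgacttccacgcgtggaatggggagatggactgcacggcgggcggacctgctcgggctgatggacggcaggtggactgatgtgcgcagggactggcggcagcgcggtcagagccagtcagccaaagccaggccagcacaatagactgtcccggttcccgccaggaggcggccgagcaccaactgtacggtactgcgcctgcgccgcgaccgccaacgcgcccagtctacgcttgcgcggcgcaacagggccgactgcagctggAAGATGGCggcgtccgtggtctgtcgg
NDUFB4: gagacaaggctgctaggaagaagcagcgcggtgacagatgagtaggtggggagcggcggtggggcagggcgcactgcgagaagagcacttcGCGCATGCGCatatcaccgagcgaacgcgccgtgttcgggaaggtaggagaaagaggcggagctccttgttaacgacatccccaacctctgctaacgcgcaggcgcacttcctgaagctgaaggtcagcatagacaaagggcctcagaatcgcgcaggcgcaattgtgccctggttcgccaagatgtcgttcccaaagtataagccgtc
ATP5C1: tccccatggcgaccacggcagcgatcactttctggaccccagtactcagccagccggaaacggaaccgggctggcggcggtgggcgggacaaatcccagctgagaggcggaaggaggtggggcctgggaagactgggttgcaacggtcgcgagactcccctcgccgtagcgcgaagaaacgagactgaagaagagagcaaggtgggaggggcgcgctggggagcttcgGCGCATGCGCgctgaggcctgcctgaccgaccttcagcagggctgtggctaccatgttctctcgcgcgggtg
SDHA: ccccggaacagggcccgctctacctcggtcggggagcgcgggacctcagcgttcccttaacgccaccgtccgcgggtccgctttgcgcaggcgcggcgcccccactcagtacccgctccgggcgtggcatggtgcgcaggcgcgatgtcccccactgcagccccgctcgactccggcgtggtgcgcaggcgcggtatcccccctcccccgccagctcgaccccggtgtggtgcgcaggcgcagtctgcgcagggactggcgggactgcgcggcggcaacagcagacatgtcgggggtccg
UQCRH: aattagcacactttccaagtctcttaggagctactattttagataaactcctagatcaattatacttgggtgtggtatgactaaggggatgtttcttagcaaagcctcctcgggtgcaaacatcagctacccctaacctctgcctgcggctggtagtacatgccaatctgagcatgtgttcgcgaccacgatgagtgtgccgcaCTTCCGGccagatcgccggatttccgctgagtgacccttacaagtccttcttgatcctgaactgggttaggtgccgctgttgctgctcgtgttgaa
UQCRC1 held the YY1 letters after its start site. NDUFB4 and ATP5C1 each held the NRF1 letters on both strands at 1 overlapping site, and UQCRH held the ETS letters once. The SDHA window held none of the 3 motifs as spelled.

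Within each complex the levels of the subunits ranged widely, although the proteins are assembled in fixed numbers. TPM is adjusted for length, but 59 of the 74 genes were under 1000 bases. How well the adjustment holds for such short messages was not tested, so levels of different genes compare only roughly. In complex I the highest median over the 42 kept libraries was that of NDUFS5, an accessory subunit, at 749 rescaled TPM, and the lowest that of the accessory subunit NDUFA5 at 12.1. In complex II SDHA, the catalytic flavoprotein, had a median of 97.6 and SDHC, a membrane anchor, 11.2. UQCRH, the hinge protein of complex III, had a median of 301 and UQCR11 47.1. The UQCRH median pools PEA libraries, where it was low or at 0, with PEO libraries, over a range of 0 to 3192. In complex IV COX7B had 565 and COX5A 83.1, and in complex V ATP5E, the epsilon subunit, had 868 and ATP5G3, which encodes the c-ring subunit, 31.0. Of the 3 genes for the same c subunit, ATP5G1 had a median of 75.98, ATP5G2 47.5 and ATP5G3 31.0.

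In the kept libraries the 74 genes together took a larger share of TPM in carboplatin than without it. In the 13 untreated libraries the share ran from 0.679 to 1.13% with a median of 0.984%. In the 29 treated libraries it ran from 1.37 to 2.37% with a median of 1.70%, so the ranges did not overlap. The medians were 1.66% at 8 h (n = 15) and 1.71% at 24 h (n = 14). Every kept treated library therefore stood above every kept untreated one, in each of the 5 lines that had both. PEO4 had the widest step, from 0.679 to 0.987% untreated to 2.30 and 2.32% at 8 h, with 1.95% in its 1 library at 24 h. By complex, the median share of complex I went from 0.392 to 0.688%, that of complex II from 0.0181 to 0.0235%, that of complex III from 0.0616 to 0.129%, that of complex IV from 0.210 to 0.418% and that of complex V from 0.253 to 0.465%. The ranges of complexes I and IV did not overlap between untreated and treated libraries. Those of complex II (0.00766 to 0.0303% untreated, 0.0103 to 0.0504% treated), complex III (0.0396 to 0.107% and 0.0633 to 0.196%) and complex V (0.192 to 0.339% and 0.320 to 0.745%) did.

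**Figure D1:**
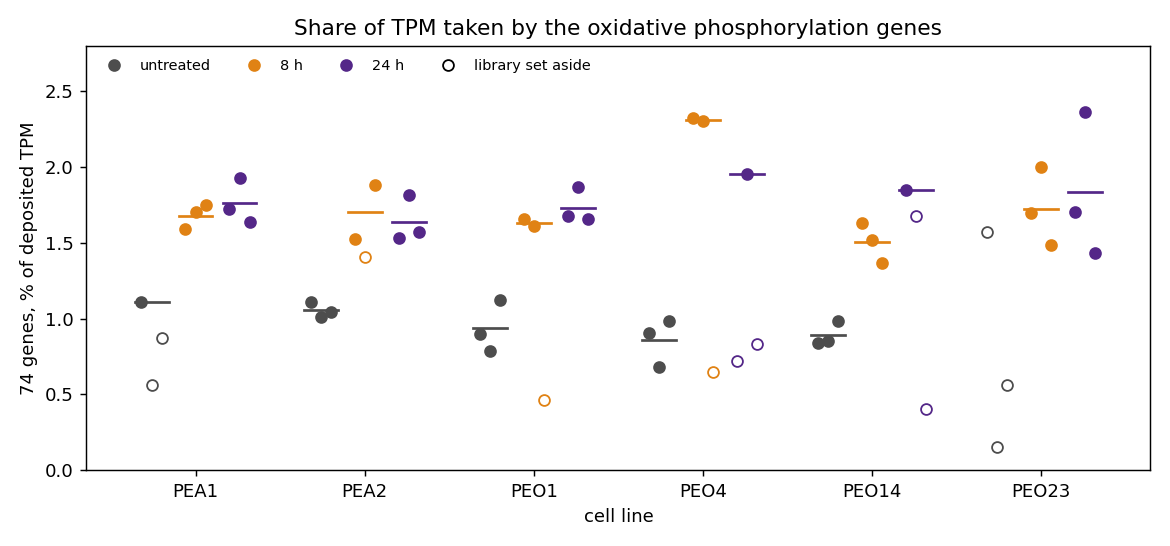
Share of the deposited TPM taken by the 74 genes (y axis, percent) in each library, by cell line (x axis) and condition (colour); filled points are the 42 kept libraries, open points the 12 set aside, and bars the group means of the kept libraries. All 29 kept treated libraries lie at 1.37% or above and all 13 kept untreated ones at 1.13% or below, whereas 5 of the 7 treated libraries set aside lie below 1.13%.

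The libraries set aside did not follow this separation. Of the 7 treated libraries among them, 5 had a share under the highest kept untreated value, with the whole set at 0.403 to 1.68%. The 5 untreated ones ran from 0.155 to 1.57%. Treated cultures also had later passages than untreated ones in PEA1, PEA2, PEO1 and PEO4, with no overlap (in PEO4, 6 to 8 untreated and 9 to 11 treated), so passage and treatment cannot be told apart in these 4 lines.

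The cytosolic ribosomal protein genes, a group of short and abundant messages with no part in respiration, moved in the same libraries in the same way. Their share of TPM was 7.49 to 14.4% untreated and 14.7 to 24.7% treated. Relative to them, the 74 genes amounted to 6.39 to 10.3% (median 8.15%) in untreated and 6.77 to 12.2% (median 8.47%) in treated kept libraries, ranges that overlap. In PEO4 the ratio did not overlap, at 9.06 to 10.3% untreated, 10.9 and 11.5% at 8 h and 10.5% in the 1 library at 24 h, and in PEO14 it was lower at 8 h (6.93 to 7.42%) than untreated (7.72 to 8.76%). The differences between treated and untreated libraries given below are relative to the median gene, and were lower relative to ribosomal protein genes.

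**Figure D2:**
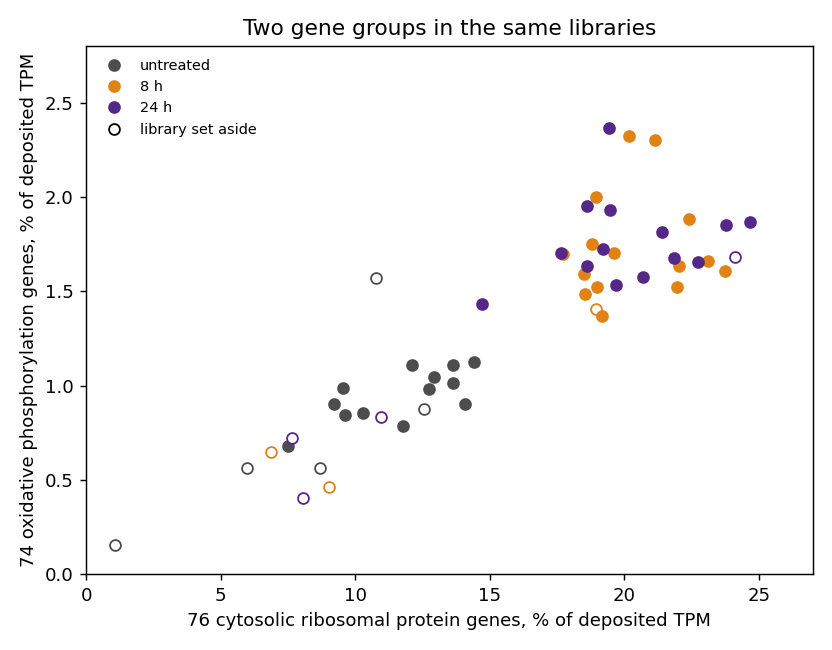
Share of the deposited TPM taken by the 74 oxidative phosphorylation genes (y axis, percent) against the share taken by 76 cytosolic ribosomal protein genes (x axis, percent), 1 point per library, coloured by condition, with open points for libraries set aside. Kept treated libraries lie higher on both axes (14.7 to 24.7% on x) than kept untreated ones (7.49 to 14.4%), and the ratio of the shares overlaps between them.

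UQCRC1, a core subunit of complex III, is given here library by library for the untreated and 8 h groups of 5 lines. Its untreated levels were 48.4 rescaled TPM in PEA1, 29.9, 36.5 and 34.0 in PEA2, 45.5, 40.6 and 54.04 in PEO1, 45.2, 29.01 and 14.1 in PEO4, and 43.6, 40.8 and 44.6 in PEO14. At 8 h they were 120.5, 126 and 108 in PEA1, 79.1 and 56.8 in PEA2, 86.3 and 168 in PEO1, 98.5 and 75.4 in PEO4, and 100.3, 78.0 and 80.3 in PEO14. None of the 29 kept treated libraries, with those at 24 h and of PEO23 included (lowest 55.1), fell to the level of an untreated one (highest 54.04). Such a separation was found for 12 of the 74 genes, and its share over all genes was not computed. UQCRC1 was called higher in 9 of the 10 comparisons of a treated with an untreated group, including all 5 lines at 24 h. The log2 difference ran from 0.81 in PEO1 at 24 h (SE 0.28, adjusted p = 0.0232) to 1.99 in PEO4 at 24 h (SE 0.40, adjusted p = 0.000708), by limma with Benjamini-Hochberg adjustment. The 1 kept PEO4 library at 24 h decides the latter, since adding the libraries with at least 10000 genes turned it to -1.33.

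NDUFB4, a membrane-arm accessory subunit of complex I, was likewise called higher in 9 of the 10 comparisons. In PEO4 it had 70.4, 55.4 and 42.8 rescaled TPM untreated and 306 and 559 at 8 h, a log2 difference of 2.89 (SE 0.34, limma adjusted p = 4.56e-08). The smallest called difference was that of PEA2 at 24 h, 1.13 (SE 0.30, limma adjusted p = 0.00872), where 233, 170 and 153 untreated stood below 349, 404 and 459. NDUFC2, another membrane-arm subunit, was the only gene of the 74 called higher in all 5 lines at 8 h, from 0.77 in PEO14 to 1.80 in PEA1. The PEA1 call rests on its 1 kept untreated library. The comparisons of a line at 8 h and 24 h share their untreated libraries. For NDUFC2, reads of the read-through gene NDUFC2-KCTD14, also in the table, may have been split from it or added to it.

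Counted over all 74 genes, most members were called higher in the PEO lines and fewer in the PEA lines. In PEO4 at 8 h, 68 were higher and 1 lower, where 21.6% of all 18013 tested genes were higher and 32% lower. In PEO1 at 8 h, 67 were higher and 0 lower (17.5% and 24.5% of all genes), and in PEO14 49 and 0 (8.92% and 21.2%). PEA2 at 8 h had 17 higher and 0 lower (3.54% and 10.8%), and PEA1, with its 1 untreated library, 2 higher and 1 lower (0.6% and 5.3%). The share of the 74 genes called higher exceeded that of all genes in each of these 5 lines.

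At 24 h the same held. PEO14 had 64 members higher and 0 lower (13.5% and 22.7% of all genes), PEO1 56 and 1 (15.7% and 22.9%), and PEO4 48 and 0 (7.26% and 12.7%). PEA2 had 29 higher and 0 lower (4.77% and 12.5%), and PEA1 5 and 1 (0.788% and 5.23%). The median log2 difference of the 74 genes was 1.08 in PEA1, 1.04 in PEA2, 2.60 in PEO1, 3.39 in PEO4 and 1.30 in PEO14 at 8 h. At 24 h the medians were 1.17, 1.08, 1.60, 1.90 and 2.33 in the same order, while the median of all genes ran from -0.27 to 0 over these comparisons. Differences were positive in all 5 lines for 68 of the 74 genes at 8 h and 69 at 24 h. The share of all genes positive in all 5 lines was not computed.

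These counts rest on the choice of libraries and of scaling. Without rescaling, 31 members were higher and 6 lower in PEO1 at 8 h (2.14% and 47.3% of all genes), with a median of 0.86. In PEO4 at 8 h 52 were higher and 5 lower (6.33% and 47.5%), with a median of 1.74. With all 54 libraries in the model 0 to 8 members were called higher in each comparison, and 0.0712 to 2.89% of all genes. Scaled to the ribosomal protein genes, 0 to 25 members were higher and 0 to 19 lower, with medians of -0.22 to 0.50. The most calls under that scaling were in PEO4 at 8 h, with 25 higher and 19 lower. Of all genes, 2.51% were higher and 63.1% lower there. With the limit lowered to 10000 listed genes, which adds a second untreated PEA1 library, 45 members were higher in PEA1 at 8 h (10% of all genes). At 24 h 47 were higher in PEA1 (9.27%) and 34 in PEO4 (10.5%). Without replicate 3, 0 members were called in PEA2 at 8 h, and without replicate 1, 21 were in PEO14 at 8 h. For PEO14 at 8 h without replicate 1, 2.87% of all genes were higher. Leaving out any 1 replicate left 8 to 13 members higher in PEA2 at 24 h (1.6 to 1.94% of all genes).

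**Figure D3:**
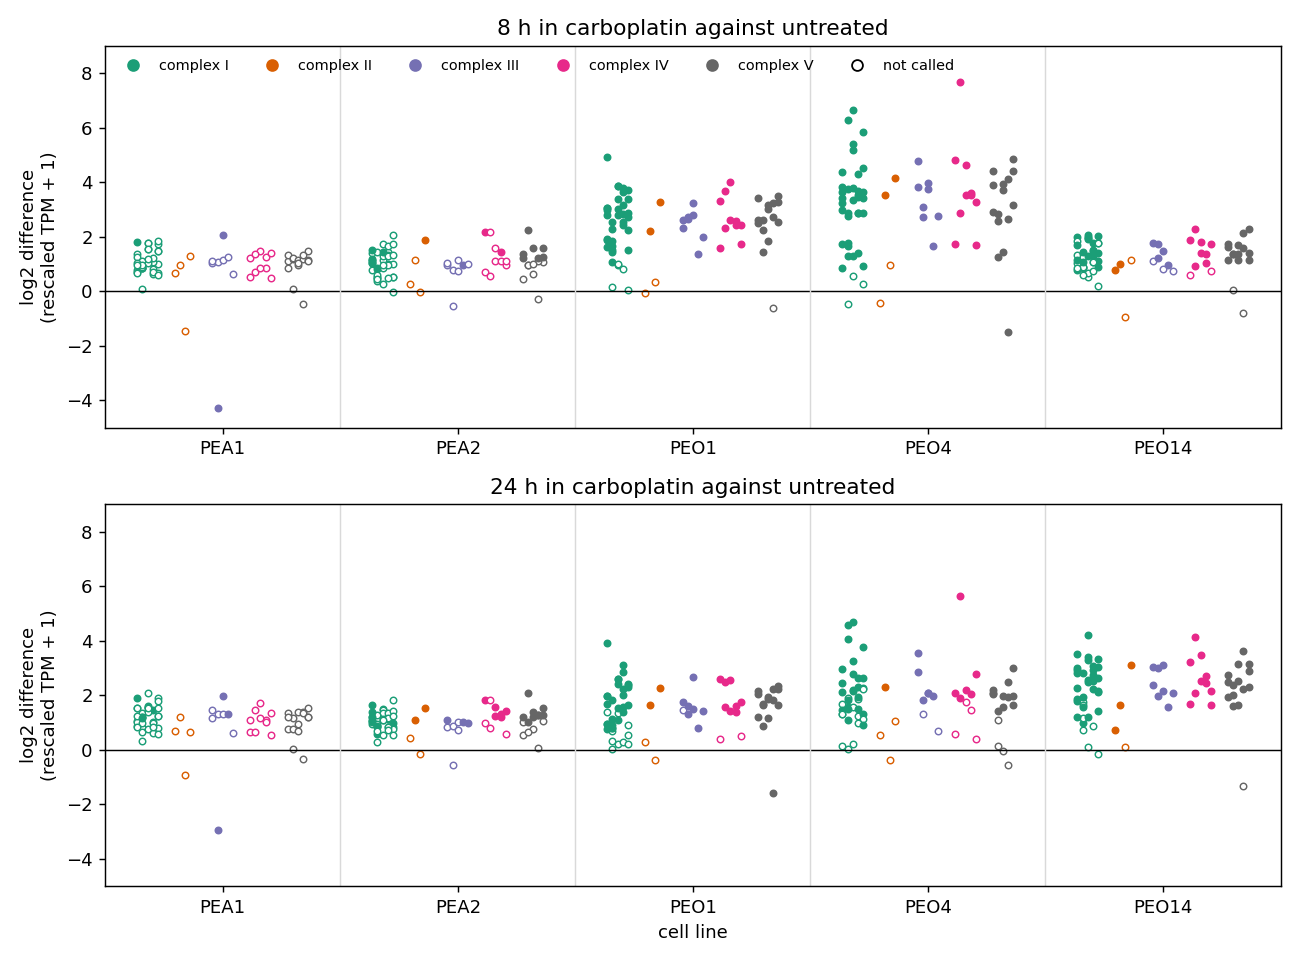
Log2 difference of each of the 74 genes (y axis, log2 of rescaled TPM + 1) between treated and untreated libraries in 5 cell lines (x axis), at 8 h (top) and 24 h (bottom), coloured by complex, with filled points for genes called at an adjusted p under 0.05. Most points lie above 0 in every line, the medians run from 1.04 in PEA2 to 3.39 in PEO4 at 8 h, and UQCRH in PEA1, SDHC and ATP5D lie apart below.

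Members were on the whole short messages. The median transcript length (GENCODE v29) was 702.5 bases for the 74 genes and 1782 for the 18975 genes of the table with a length, and 59 of the 74 were under 1000 bases. Other genes under 1000 bases were called higher more often than other genes of 2000 bases or more, for example 34.6% against 16.1% in PEO4 at 8 h and 23.4% against 8.94% in PEO14 at 24 h. Among the 1013 other genes that were both short and abundant (mean log2 level of at least 5) the share was 63.8% in PEO4 at 8 h (median log2 difference 1.60) and 50.4% in PEO14 at 24 h (median 1.29). The 15 members of 1000 bases or more had a median log2 difference of 2.87 in PEO4 at 8 h and 2.54 in PEO14 at 24 h, beside 3.43 and 2.29 for the 59 shorter ones. The part of transcript length in the result was not tested.

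Complex I contributed 33 of its 37 genes to those called higher in PEO1 at 8 h, 34 in PEO4 and 21 in PEO14, with 6 in PEA2 and 1 in PEA1. Core subunits of the matrix arm carry the flavin and iron-sulfur centres. NDUFS1, the largest of them, was called higher in 8 of 10 comparisons, from 0.83 in PEA2 at 8 h to 2.75 in PEO4 at 8 h, and NDUFV2 in 6, up to 3.44 in PEO4 at 8 h. NDUFS3 was called in 4, and NDUFS7 and NDUFS8 in 2 each. NDUFV1, which binds NADH and the flavin, was called in 1 of 10, in PEO4 at 24 h (0.93, SE 0.29, limma adjusted p = 0.0203), which again rests on 1 library and was -0.64 with the limit at 10000 listed genes. Its other differences lay between -0.17 and 0.61. NDUFV3, a small subunit beside NDUFV1, was called in 0 of 10, with differences of -0.47 to 0.72.

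Accessory subunits gave the widest differences of complex I. NDUFA9, which sits where the arms meet, had 4.13, 0 and 2.36 rescaled TPM in untreated PEO4 and 189 and 345 at 8 h, a log2 difference of 6.63 (SE 0.55, limma adjusted p = 2.26e-10). NDUFB6 had 0, 9.76 and 26.4 in untreated PEO1 and 100.2 and 402 at 8 h, a difference of 4.92. NDUFA4, counted here by its symbol although the protein is placed in complex IV, rose by 4.23 in the 1 kept PEO14 library at 24 h. In each case the treated values stood above all untreated ones. In these comparisons 69, 68 and 71 of the 74 members did not overlap, and shares over all genes were not computed. The 71 was reached with 1 treated library, where non-overlap comes more easily. An exact 0 in this table can be a failed estimate, so these differences depend on the pseudocount of 1.

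In complex II 2 genes were called higher in most comparisons and the other 2 were not. SDHB, the iron-sulfur subunit, was called higher in 7 of 10 comparisons and SDHD, an anchor, in 6. SDHB in PEO4 had 14.0, 3.83 and 24.0 untreated and 105.6 and 183 at 8 h (log2 difference 3.52), and SDHD had 4.82, 6.97 and 9.32 against 125 and 150.5 (4.14). SDHA was called in 2 of 10, both in PEO14, by 0.79 at 8 h and 0.74 at 24 h, and was at -0.75 and -1.75 when scaled to ribosomal protein genes. The other anchor, SDHC, was called in 0 of 10 and had a negative difference in 7 of 10, from -1.46 in PEA1 at 8 h to 0.98 in PEO4 at 8 h. Differences between these genes were not tested.

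All 8 complex III genes were called higher in PEO1 and PEO4 at 8 h and in PEO14 at 24 h. UQCRFS1, the Rieske iron-sulfur protein, was called in 7 of 10, up to 3.82 in PEO4 at 8 h. UQCR10, a small subunit, had 4.76 there. UQCRQ, another small subunit, was called higher in PEA1 at 8 h by 2.07, a value that rests on the 1 kept untreated PEA1 library.

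All 10 complex IV genes were called higher in PEO1 and PEO4 at 8 h and in PEO14 at 24 h. COX7A2 had 14.0, 0 and 0 rescaled TPM in untreated PEO4 and 320 and 781 at 8 h, a log2 difference of 7.67 (SE 0.76, limma adjusted p = 3.34e-09). COX7B rose by 4.02 in PEO1 at 8 h. COX5A was called in 6 of 10, up to 2.89, and COX4I1 in 3, up to 1.73, each at its highest in PEO4 at 8 h, where COX4I1 was at -1.17 when scaled to ribosomal protein genes. COX6B1 was also called in 3.

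In complex V, 14 of 15 genes were called higher in PEO1 at both times, in PEO4 at 8 h and in PEO14 at 24 h. Of the F1 head, ATP5A1 (alpha) and ATP5B (beta), which form the catalytic hexamer, were called in 7 of 10 each and rose by 3.90 and 2.58 in PEO4 at 8 h. ATP5C1 (gamma), the central shaft, was called in 8, and ATP5E (epsilon) in 6, up to 4.85 in PEO4 at 8 h. ATP5G1, for the c subunit, rose in PEA2 at 8 h by 2.27 (SE 0.55, limma adjusted p = 0.0055).

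ATP5D, the delta subunit of the same F1 head, went against the rest. It had 125, 188 and 92.6 rescaled TPM in untreated PEO1 and 50.2, 40.6 and 37.7 at 24 h, so the groups did not overlap, and it fell by 1.59 on the log2 scale (SE 0.48, limma adjusted p = 0.0101). In PEO4 the untreated values of 152, 419 and 47.7 overlapped those at 8 h, 54.6 and 47.2, and it fell by 1.499 (SE 0.54, limma adjusted p = 0.02). It was called higher in 0 of 10 comparisons and its difference was negative in 9 of 10. Together with SDHC and NDUFV3 it makes up the 3 members never called higher. The other 71 were called higher in at least 1 comparison, and 53 in at least 5, and shares of all genes were not computed for these counts.

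Between 8 h and 24 h few members were called. In PEA1 and PEA2 0 were called in either direction, by limma with Benjamini-Hochberg adjustment, where 0.0222% and 0.00555% of all genes were higher and lower in PEA1, and 0% and 0% in PEA2. At an unadjusted p under 0.05, for which no share of all genes was computed, 1 member was higher and 0 lower in each. In PEO1 the number was also 0 (0.0944% and 0.122% of all genes), with a median difference of -0.97. At an unadjusted p under 0.05, 35 members were lower in PEO1, again with no share of all genes to set beside them. In PEO23 0 were called (0.0777% and 0.316%), with a median of -0.21 and 1 member higher at an unadjusted p under 0.05. The PEO1 count moved without replicate 1, which left a single PEO1 library at 8 h. PEO4 had 1 member higher and 20 lower (7.66% and 6.42% of all genes), with a median of -1.40. The balance turned to 4 higher and 1 lower both without rescaling (median -0.29) and scaled to ribosomal protein genes (median -0.14). With the limit at 10000 listed genes it was 0 and 51, and with all 54 libraries 0 and 0. SDHD fell most of complex II, from 125 and 150.5 at 8 h to 15.2 at 24 h (by 3.09 on the log2 scale, SE 0.73, limma adjusted p = 0.00805), and COX7B fell by 2.86. SDHA was the 1 gene that rose, from 47.0 and 36.6 to 82.1 (0.97, SE 0.27, limma adjusted p = 0.0176). This rests on the 1 kept PEO4 library at 24 h and turned to -1.53 with all 54 libraries. In PEO14 2 members were higher and 0 lower (0.538% and 2%), NDUFA6 by 1.93 and ATP5J, the coupling factor 6 subunit, by 1.57. Cultures of a line with the same number shared a passage at both times, and with the culture as a block neither was called (1.89 with limma adjusted p = 0.152 and 1.41 with limma adjusted p = 0.352). PEO4 and PEO14 had 1 kept library each at 24 h.

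Between the resistant and the sensitive line of a pair, differences went in both directions and concerned few members. Untreated PEA2 had 1 member higher and 4 lower than PEA1 (6.32% and 5.25% of all genes were higher and lower), and untreated PEO4 had 4 higher and 17 lower than PEO1 (15.4% and 13%). At 8 h PEA2 had 2 higher and 5 lower (8.98% and 7.18%), PEO4 3 and 3 (4.66% and 5.23%), and PEO23 16 higher and 1 lower than PEO14 (6.83% and 8.01%). At 24 h the counts were 2 and 8 in PEA2 (10.2% and 8.55%), 3 and 4 in PEO4 (11.9% and 9.68%), and 0 and 1 in PEO23 (2.49% and 2.68%). The median differences in the same order of times and pairs were -0.25, -0.30, -0.15, 0.23, 0.80, -0.26, -0.09 and -0.38. Except for the 16 in PEO23 at 8 h and the 17 in untreated PEO4, these shares lay near or below those of all genes. With the limit at 10000 listed genes, PEO4 had 5 members higher and 30 lower than PEO1 at 24 h (20.9% and 24.2% of all genes), and untreated PEA2 had 16 higher and 4 lower than PEA1 (14.3% and 10.1%).

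**Figure D4:**
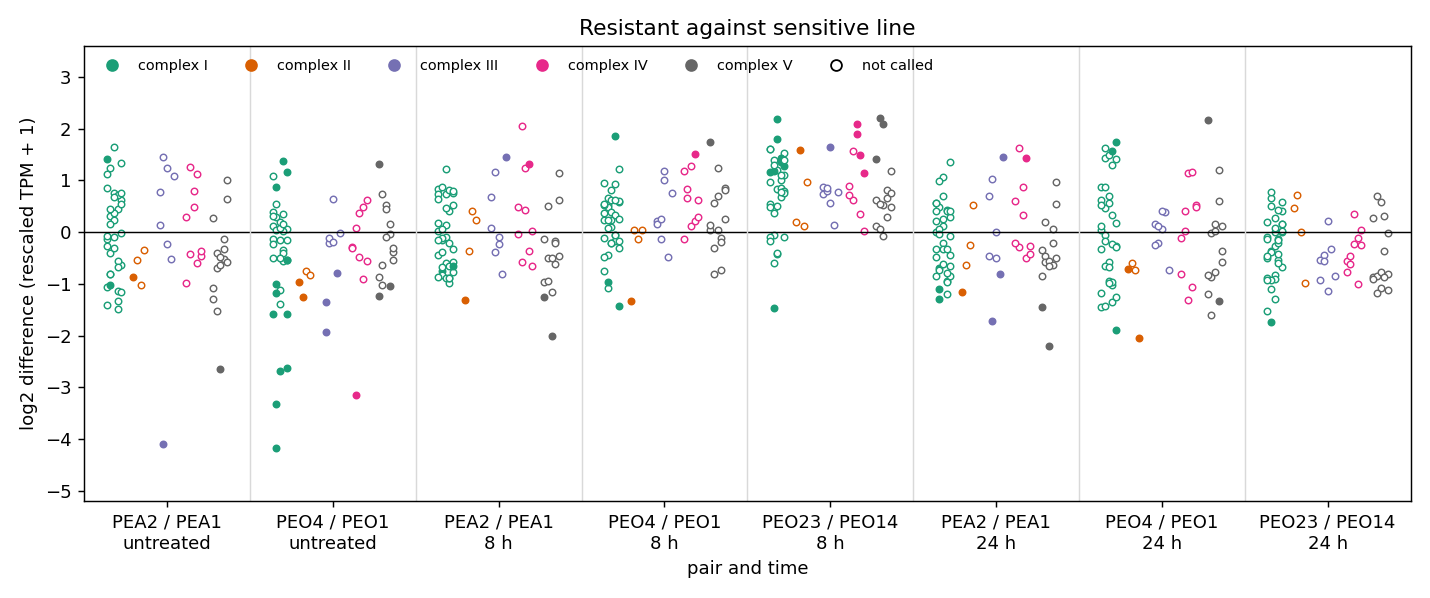
Log2 difference of each of the 74 genes (y axis, log2 of rescaled TPM + 1) between the resistant and the sensitive line of a pair, for 8 combinations of pair and time (x axis), coloured by complex, with filled points for genes called at an adjusted p under 0.05. Points spread on both sides of 0, with medians from -0.38 to 0.80, and single genes such as UQCRH (-4.10) and NDUFB2 (-4.18) lie far below in untreated libraries.

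SDHA was the only member called in the same direction in more than 1 pair at the untreated time, and the difference was seen at all 3 times. Untreated it stood at 35.4, 41.6 and 44.7 rescaled TPM in PEA2 against 74.9 in PEA1, and at 55.5, 54.1 and 57.3 in PEO4 against 106.05, 113 and 111 in PEO1. At 8 h it stood at 54.1 and 43.6 against 120.2, 121 and 123.1, and at 47.0 and 36.6 against 140 and 79.5. At 24 h it stood at 58.2, 52.2 and 53.0 against 128, 122 and 119, and at 82.1 against 144, 125 and 138. In none of the 6 comparisons did the lines overlap, with the resistant line always the lower. In PEA2 against PEA1, 62, 43 and 39 of the 74 members did not overlap untreated, at 8 h and at 24 h. In PEO4 against PEO1 the numbers were 22, 9 and 65, and shares over all genes were not computed. The 62 and the 65 were each reached with 1 library on 1 side (untreated PEA1, PEO4 at 24 h), where non-overlap comes more easily.

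The log2 differences of SDHA were -0.88 (SE 0.25), -1.30 (SE 0.20) and -1.16 (SE 0.18) in PEA2 against PEA1, untreated, at 8 h and at 24 h. In PEO4 against PEO1 they were -0.97 (SE 0.18), -1.33 (SE 0.22) and -0.72 (SE 0.25). The limma adjusted p ran from 8.44e-06 to 0.039. Without rescaling the difference kept its sign in all 6 but the adjusted p rose to between 0.0531 and 0.49. With the limit at 10000 listed genes, the untreated difference in the PEA pair was -0.16 (limma adjusted p = 0.756). In PEO23 against PEO14 it was 0.20 at 8 h and 0.47 at 24 h and was not called. The related sequences SDHAP1, SDHAP2 and SDHAP3 had medians of 0 to 17.9 rescaled TPM in each line, and reads shared with them could move the value of SDHA.

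In the PEA pair ATP5C1, the shaft of the ATP synthase, was lower in PEA2 at each time. It stood at 37.7, 29.5 and 26.4 rescaled TPM untreated against 198 in PEA1, at 78.0 and 118 against 357, 431 and 388 at 8 h, and at 71.7, 88.1 and 85.7 against 383, 429 and 335 at 24 h. The log2 differences were -2.65 (SE 0.48), -2.02 (SE 0.38) and -2.21 (SE 0.34), with limma adjusted p of 0.000175, 0.000183 and 8.38e-06. ATP5C1 was also called higher in carboplatin in PEA2, by 1.60 at 8 h and 1.37 at 24 h, and was not called in PEA1. UQCRC2, the partner of UQCRC1 in complex III, was higher in PEA2 by 1.44 at 8 h (116 and 168 against 42.1, 52.8 and 58.6) and by 1.45 at 24 h. COX7C was higher by 1.32 and 1.44. NDUFC2 was higher in untreated PEA2 (25.1, 22.7 and 20.9 against 7.98, log2 difference 1.41), the reverse of NDUFV3 (25.4, 24.0 and 37.6 against 59.0, -1.03). The untreated differences of ATP5C1, NDUFC2 and NDUFV3 all rest on 1 untreated PEA1 library. That of NDUFV3 was 0.064 with all 54 libraries.

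UQCRH, the acidic hinge protein that helps cytochrome c meet complex III, was listed low or at 0 in both PEA lines, where an exact 0 can be a failed estimate. In PEA1 it stood at 24.1 rescaled TPM untreated, at 0, 1.24 and 0 at 8 h, and at 2.72, 1.64 and 2.62 at 24 h. In PEA2 it was listed at 0, 2.11 and 0 untreated and at 0 in all 5 treated libraries. In the 27 kept libraries of the PEO lines it ranged from 178 to 3192. The PEA and PEO libraries did not overlap.

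The near-identical copy UQCRHL was low in the same lines, at 0 to 1.95 in PEA1 and 0 to 12.4 in PEA2, against 65.4 to 1359 in the PEO lines, and reads may have been split between the copies. UQCRH was called lower in PEA2 than in PEA1 untreated (-4.10, SE 0.63, limma adjusted p = 1.9e-05), and it fell in PEA1 by 4.26 at 8 h and by 2.93 at 24 h. These 3 calls rest on the 1 kept untreated PEA1 library. At 24 h it was called lower in PEA2 by -1.72 (SE 0.45, limma adjusted p = 0.00553), with both lines at 2.72 or less. In the untreated PEA1 libraries set aside UQCRH was listed at 60.7 and 0 TPM.

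**Figure D5:**
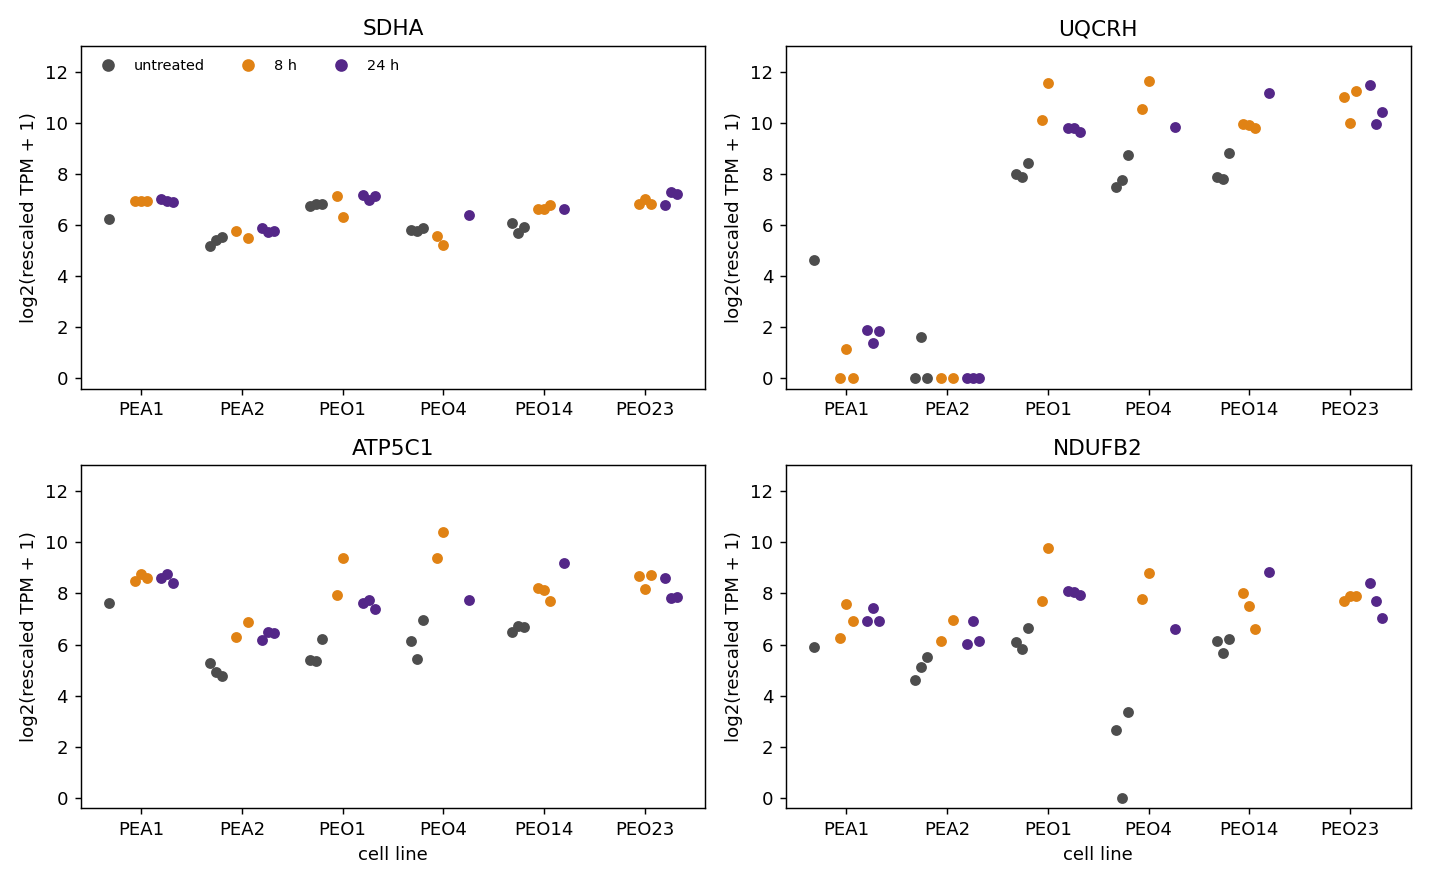
Levels of SDHA, UQCRH, ATP5C1 and NDUFB2 (y axis, log2 of rescaled TPM + 1) in each of the 42 kept libraries, by cell line (x axis) and condition (colour), 1 point per library. SDHA is lower in PEA2 and PEO4 than in their partners, UQCRH is lower in all PEA1 and PEA2 libraries (24.1 rescaled TPM or less) than in the PEO lines, ATP5C1 is lower in PEA2 than in PEA1, and NDUFB2 is lowest in untreated PEO4.

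In the PEO1 and PEO4 pair the low members of untreated PEO4 included several accessory subunits. NDUFB2 stood at 5.39, 0 and 9.31 rescaled TPM in PEO4 against 68.1, 55.5 and 99.3 in PEO1 (-4.18, SE 0.57, limma adjusted p = 1.37e-06). COX7A2 stood at 14.0, 0 and 0 against 27.7, 9.05 and 35.1 (-3.15, SE 0.68, limma adjusted p = 0.000752), with overlapping values. The log2 difference was -1.92 for UQCR10 (overlapping values), -1.35 for UQCRFS1, -1.25 for SDHB and -1.24 for ATP5A1. None of these 6 was called at 8 h or 24 h. The ribosomal protein genes had a median difference of -0.64 in the same comparison. Scaled to them 11 members were higher and 8 lower (21.2% and 8.42% of all genes).

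ATP5I, the e subunit that helps ATP synthase dimers form, was higher in PEO4 than in PEO1 at each time. It stood at 705, 785 and 1134 untreated against 284, 334 and 428, and at 3587 at 24 h against 828, 832 and 748. The log2 differences were 1.31, 1.74 and 2.16 untreated, at 8 h and at 24 h, with limma adjusted p of 0.027, 0.0397 and 0.0144. NDUFB9 was higher untreated (1.37) and at 8 h (1.86), and COX6A1 at 8 h (1.52), both at 8 h with overlapping values. NDUFA6, an accessory subunit of complex I, was lower at 8 h (141 and 211 against 304 and 720, -1.43) and at 24 h (58.7 against 222, 228 and 215, -1.90). At 24 h NDUFB10 was higher by 1.74 and SDHD differed by -2.05, both against 1 PEO4 library.

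In PEO23 against PEO14 the 16 members higher at 8 h included ATP5G1 (log2 difference 2.20), NDUFA4 (2.19), COX7B (2.08), UQCRQ (1.65) and SDHB (1.59). SDHB had 284, 211 and 263 rescaled TPM in PEO23 and 109, 89.9 and 57.2 in PEO14. The ribosomal protein genes had a median of 0.66 in this comparison, and scaled to them 8 members were higher (1.48% of all genes). Without rescaling 4 were higher and 4 lower (1.62% and 15% of all genes), with a median of -0.08. Without replicate 3, 0 members were called higher (2.92% of all genes), and without replicate 2, 25 were (6.62%). NDUFV3 was lower in PEO23 at both times, at 47.3, 32.5 and 40.6 against 101.7, 110.4 and 124 at 8 h (-1.47, SE 0.24, limma adjusted p = 4.85e-05) and at 38.4, 41.3 and 27.9 against 120 at 24 h (-1.74, SE 0.34, limma adjusted p = 0.00147). At 24 h it was the only member called in this pair.

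Tests of whether the change in carboplatin differed between the lines of a pair called 3 members. At 8 h NDUFB2 rose by 6.27 in PEO4 and by 2.53 in PEO1, a difference of 3.73 (SE 0.90, limma adjusted p = 0.0187), and COX7A2 by 7.67 and 3.68, a difference of 3.98 (SE 1.08, limma adjusted p = 0.0425). These 2 were called higher in the test and 0 lower (0.749% and 1.63% of all genes). In the PEA pair UQCRH alone was called at 8 h (1 higher and 0 lower, 0.167% and 0.172% of all genes). At 24 h 0 members were called in either pair by limma (0.167% and 0.217% of all genes were called in the PEA pair, 0.538% and 0.844% in the PEO1 and PEO4 pair). At an unadjusted p under 0.05, for which no share of all genes was computed, 1 member was higher in the PEA pair and 7 in the PEO1 and PEO4 pair. At 8 h NDUFB2 stood at 218 and 442 in PEO4 and at 206 and 865 in PEO1, and COX7A2 at 320 and 781 and at 132 and 589.

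Genes that work beside the 74 were read from fixed lists. Of 43 assembly factors, 26 were called higher in PEO4 at 8 h and 2 lower (median 1.61), where 21.6% of all genes were higher and 32% lower, and of 18 genes of the citric acid cycle and pyruvate dehydrogenase, 9 and 2 (median 1.09). Of 77 mitochondrial ribosomal protein genes, 67 were called higher and 1 lower (median 2.52), and of the 76 cytosolic ones, 73 and 0 (median 3.11). Of the 16 regulators of mitochondrial biogenesis, 5 were higher and 7 lower in PEO4 at 8 h (median -0.19). In PEA2 at 8 h, with 3.54% of all genes higher and 10.8% lower, the counts were 2 and 1 for assembly factors, 0 and 0 for the citric acid cycle list, 13 and 1 for mitochondrial and 17 and 0 for cytosolic ribosomal protein genes, and 0 and 1 for the regulators.

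Among those regulators TFAM, which packages and transcribes mitochondrial DNA, was called higher in PEO1 (2.63 at 8 h and 2.22 at 24 h), in PEO4 at 8 h (3.08) and in PEO14 (1.00 and 2.78). NRF1 was called lower in PEO14 (-1.07 at 8 h and -1.40 at 24 h) and in PEO4 at 24 h (-1.43). ESRRA was lower in PEO4 at 8 h (-1.34). PPARGC1A, the coactivator PGC-1alpha, was lower in PEO14 (-0.75 at 8 h and -2.04 at 24 h), where it ranged from 1.35 to 9.51 rescaled TPM. It was called in no other line against untreated. Its medians there were 0.44 in PEA1, 0.038 in PEA2, 0 in PEO1 and 0.78 in PEO4, which left little room for a fall. The values of PEO14 and PEO4 at 24 h rest on 1 kept library each.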

How the data were processed

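Gene-level TPM, deposited by the authors as 1 table, was used; per the submitters' processing notes bcl2fastq 2.18 and build hg19 were used, while aligner, annotation and strand setting were not given in sources used here. Per the labels' protocols, total RNA was sequenced with a stranded kit. The depth per sample is unknown.

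From the deposited TPM, 42 libraries with at least 12000 genes above 0 TPM were rescaled by the median ratio over 8287 genes, and log2(value + 1) of 18013 genes with at least 1 TPM in at least 3 libraries was fitted with limma 3.58.1 (trend, R 4.3.3) over all groups. Fold changes on this scale understate those of low genes. Genes were called at a Benjamini-Hochberg adjusted p under 0.05 over all tested genes, in each of 28 comparisons. The p-values measure the spread between samples that the series text places on different days. The procedure was tested on simulated data of independent normal values, with effects planted in genes above the floor and of low spread. Those data held no failed libraries and no scaling tied to treatment, so these were not tested.

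The members, the lists and the limit of 12000 genes were chosen with earlier results of these data known. Named genes are, per comparison and complex, the largest called rise and fall, members called alike in every pair or line, all of complex II, the highest and lowest median per complex, fixed core subunits, and 4 regulators. Alternatives were all libraries, no rescaling, a pseudocount of 0.1, no filter, only the compared groups, replicate blocks and leaving out replicates. A limit of 10000 genes and scaling to ribosomal protein genes were chosen after seeing the data. Same-numbered samples were checked for pairing, and the main model has no block. The values of 1 member are not reported singly here, though it is in all counts.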

Additional observations from a re-analysis of the deposited data

Results flagged for a closer look

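For 3 genes the change in carboplatin at 8 h differed between the lines of a pair by the test of the difference itself. For NDUFB2 the change in PEO4 exceeded that in PEO1 by 3.73 on the log2 scale (limma adjusted p = 0.0187). At 24 h the difference was 2.75 and was not called (limma adjusted p = 0.191). For COX7A2 it was 3.98 at 8 h (limma adjusted p = 0.0425) and 3.16 at 24 h (limma adjusted p = 0.219). Untreated PEO4 had NDUFB2 at 0 in 1 of its 3 libraries and COX7A2 at 0 in 2.

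For UQCRH the change in PEA2 exceeded that in PEA1 by 3.71 at 8 h (limma adjusted p = 0.0277) and by 2.38 at 24 h (limma adjusted p = 0.36). UQCRH was listed at 0 in every kept PEA2 library in carboplatin, so the value depends on the pseudocount and on the 1 kept untreated PEA1 library.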

How the results depend on the processing

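The number of the 74 genes called, in both directions together, moved by over 1.5 times in the following comparisons, and the cause was not tested. Comparisons of a line are with its untreated libraries unless another is named. The share of all genes called also changed between settings and is not given beside each count. For PEA2 at 24 h, fitting the compared groups alone took the share higher from 4.77 to 8.36% (lower, 12.5 to 13.6%). For PEO1 at 8 h, all 54 libraries took it from 17.5 to 0.668% (lower, 24.5 to 3.8%). For PEO14 at 8 h, scaling to ribosomal protein genes took it from 8.92 to 0.183% (lower, 21.2 to 59.4%). With all 54 libraries the number was 1 for PEA2/PEA1 untreated, PEO4/PEO1 untreated and PEO4 at 24 h, 0 for PEA2/PEA1 at 8 h, PEO4/PEO1 at 8 h, PEO23/PEO14 at 8 h, PEA2/PEA1 at 24 h, PEA2 at 8 h, PEO14 at 8 h, PEA2 at 24 h, PEO1 at 24 h, PEO14 at 24 h, PEO4 24 h against 8 h, PEO14 24 h against 8 h, the difference in change at 8 h between PEA2 and PEA1 and the difference in change at 8 h between PEO4 and PEO1, 2 for PEO1 at 8 h, 8 for PEO4 at 8 h. With the limit at 10000 genes, chosen after seeing the data, it was 20 for PEA2/PEA1 untreated, 3 for PEA2/PEA1 at 8 h and PEO4/PEO1 at 8 h, 11 for PEO23/PEO14 at 8 h, 35 for PEO4/PEO1 at 24 h, 46 for PEA1 at 8 h, 6 for PEA2 at 8 h, 32 for PEO14 at 8 h, 48 for PEA1 at 24 h, 10 for PEA2 at 24 h, 51 for PEO4 24 h against 8 h, 1 for PEO14 24 h against 8 h and the difference in change at 24 h between PEA2 and PEA1, 0 for the difference in change at 8 h between PEO4 and PEO1, 2 for the difference in change at 24 h between PEO4 and PEO1. Fitting the compared groups alone gave 3 for PEO4/PEO1 untreated, 18 for PEA2/PEA1 at 8 h, 0 for PEO4/PEO1 at 8 h, PEO23/PEO14 at 24 h, PEO4 at 24 h, PEO4 24 h against 8 h, PEO14 24 h against 8 h, the difference in change at 8 h between PEA2 and PEA1 and the difference in change at 8 h between PEO4 and PEO1, 7 for PEO23/PEO14 at 8 h, 25 for PEA2/PEA1 at 24 h, 32 for PEO4/PEO1 at 24 h, 29 for PEA1 at 8 h, 12 for PEO1 at 8 h, 34 for PEO4 at 8 h, 50 for PEA2 at 24 h. Without rescaling it was 4 for PEA2/PEA1 at 8 h, 8 for PEO23/PEO14 at 8 h, 0 for PEO23/PEO14 at 24 h and PEO14 24 h against 8 h, 7 for PEA2 at 8 h, 37 for PEO1 at 8 h, 22 for PEO14 at 8 h, 9 for PEA2 at 24 h, 29 for PEO4 at 24 h, 26 for PEO14 at 24 h, 5 for PEO4 24 h against 8 h. Scaled to ribosomal protein genes, also chosen after seeing the data, it was 9 for PEO23/PEO14 at 8 h, 0 for PEO23/PEO14 at 24 h, PEA2 at 8 h, PEA2 at 24 h and PEO14 24 h against 8 h, 25 for PEO1 at 8 h, 44 for PEO4 at 8 h, 12 for PEO14 at 8 h, 2 for PEA1 at 24 h, 23 for PEO1 at 24 h, 14 for PEO4 at 24 h, 15 for PEO14 at 24 h, 5 for PEO4 24 h against 8 h, 1 for the difference in change at 24 h between PEA2 and PEA1. Without the filter on low values it was 5 for PEA1 at 8 h, 1 for the difference in change at 8 h between PEO4 and PEO1. With a pseudocount of 0.1 it was 3 for PEA1 at 24 h, 1 for PEO14 24 h against 8 h and the difference in change at 8 h between PEO4 and PEO1, 0 for the difference in change at 8 h between PEA2 and PEA1. With the culture as a replicate block it was 0 for PEO14 24 h against 8 h. With the replicate number as a block it was 1 for the difference in change at 24 h between PEO4 and PEO1. Leaving out each replicate in turn gave 3 to 5 for PEA2/PEA1 untreated, 12 to 19 for PEO4/PEO1 untreated, 2 to 4 for PEA2/PEA1 at 8 h, 1 to 2 for PEO4/PEO1 at 8 h, 1 to 26 for PEO23/PEO14 at 8 h, 5 to 8 for PEA2/PEA1 at 24 h, 3 to 5 for PEO4/PEO1 at 24 h, 1 to 2 for PEO23/PEO14 at 24 h, 0 to 16 for PEA2 at 8 h, 21 to 42 for PEO14 at 8 h, 8 to 13 for PEA2 at 24 h, 0 to 9 for PEO1 24 h against 8 h, 0 to 3 for PEO14 24 h against 8 h, 0 to 1 for the difference in change at 8 h between PEA2 and PEA1, 0 to 1 for the difference in change at 8 h between PEO4 and PEO1, 1 to 2 for the difference in change at 24 h between PEO4 and PEO1. Of 80 differences of single genes, 12 changed sign in at least 1 setting, 17 times in all. With all 54 libraries the log2 difference became 0.064 for NDUFV3 in PEA2/PEA1 untreated, -1.33 for NDUFV1 in PEO4 at 24 h, -0.56 for UQCRC1 in PEO4 at 24 h, -0.35 for SDHA in PEO14 at 24 h, -1.53 for SDHA in PEO4 24 h against 8 h. Scaled to ribosomal protein genes the log2 difference became -0.16 for NDUFS1 in PEA2 at 8 h, -0.31 for ATP5B in PEO4 at 8 h, -1.17 for COX4I1 in PEO4 at 8 h, -0.011 for NDUFS1 in PEO4 at 8 h, -0.77 for NDUFC2 in PEO14 at 8 h, -0.75 for SDHA in PEO14 at 8 h, -0.52 for UQCRC1 in PEO1 at 24 h, -0.68 for NDUFV1 in PEO4 at 24 h, -1.75 for SDHA in PEO14 at 24 h. With the limit at 10000 genes the log2 difference became -0.64 for NDUFV1 in PEO4 at 24 h, -1.33 for UQCRC1 in PEO4 at 24 h. Without rescaling the log2 difference became -0.63 for SDHA in PEO14 at 24 h. Of the 80, 62 kept their direction and call with the limit at 10000 genes, 51 without rescaling, 41 scaled to ribosomal protein genes, 34 with only the compared groups and 5 with all 54 libraries. The replicate number did not pair the samples (correlations of deviations of -0.247 to 0.411, over 0.1 in 2 of 10 pairs of groups), and as a block it left 77 of the 80 as they were. TPM keeps no depth, so the precision of low values is unknown.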
